A study of Mus with 10 samples.

Results

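The genes described are 9 components of the transforming growth factor β (TGF-β) pathway, namely the ligand gene *Tgfb1*, the receptor genes *Tgfbr1*, *Tgfbr2* and *Tgfbr3*, the signal transducer genes *Smad2*, *Smad3* and *Smad7* and the co-repressor genes *Ski* and *Skil*, together with *Htra3*, which encodes a secreted serine protease described as a TGF-β antagonist. The set was selected on the measured differences of expression between Ncr1-KO and Ncr1-WT libraries, was taken from the table by gene name, and holds 10 of the 24564 genes listed for liver type 1 innate lymphoid cells (ILC1s). Their values in that comparison are therefore a description: where a gene of the set is said to be called or not, this states its side of the threshold and is no independent test.

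TGF-β is secreted in a latent form and, once released, binds the type II receptor TGFBR2, which recruits and phosphorylates the type I receptor TGFBR1. The receptor complex phosphorylates SMAD2 and SMAD3, which join SMAD4 and enter the nucleus. SMAD7, SKI and SKIL restrain the pathway, and several of these restraining genes are themselves switched on by it. In innate lymphoid cells TGF-β is known to favour tissue-resident, ILC1-like features over those of conventional natural killer (NK) cells.

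ILC1s were compared between 5 libraries from *Ncr1*+/+ mice (Ncr1-WT) and 5 from *Ncr1*gfp/gfp mice (Ncr1-KO), in which *gfp* replaces the gene of the activating receptor NKp46. All mice were of the C57BL/6 strain, and the study used animals of either sex at 6 to 8 weeks of age, with no treatment named for the liver libraries. Lineage-negative NK1.1+ CD49b- CD49a+ liver cells were sorted, by NKp46 antibody in Ncr1-WT mice and by GFP in Ncr1-KO mice, so the gate differs with the genotype. The study speaks of RNA pools for these libraries and does not say how many mice each one holds, so the spread between libraries may be technical. In these bulk libraries, fewer cells of a type and less RNA per cell cannot be told apart.

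Library totals ran from 15796253 to 21975879 counts in Ncr1-KO and from 17996935 to 22623133 in Ncr1-WT ILC1s, so that 3 counts correspond to 0.132 to 0.190 CPM (counts scaled to the library size, corrected by TMM factors). *Ncr1* itself was at 259 CPM ± 97.5 in Ncr1-KO and 2029 CPM ± 99.97 in Ncr1-WT libraries (SD, n = 5 each). The summed CPM of 8 ILC1 marker genes was 4424 to 4702 in Ncr1-KO and 4453 to 4709 in Ncr1-WT libraries. This sum does not show the single genes, of which 3 had log2 fold changes above 0 and 5 below. Among the 8, *Il7r*, the interleukin 7 receptor gene, was called as lower (log2 fold change -0.97). An unadjusted p under 0.05 was found for 6 of them, against 11.4% of all genes tested. *Itga1*, the gene of the gated CD49a, reached 732 CPM or more in every library (log2 fold change 0.32, adjusted p = 0.000481). *Eomes*, the gene of a transcription factor of NK cells, was at 5.06 to 17.7 CPM in Ncr1-KO and 5.85 to 8.35 CPM in Ncr1-WT libraries. Its log2 fold change was 0.52 (adjusted p = 0.455). The summed levels of other lists did move with the genotype. For 7 NK cell genes they were 136 to 210 CPM in Ncr1-KO against 98.8 to 120 CPM in Ncr1-WT libraries. Most of the NK cell sum was *Itgam*, at 76.0 to 121 against 43.3 to 58.8 CPM, and *Itga2*, at 44.9 to 59.9 against 31.7 to 47.6 CPM. *Itgam* was the only NK cell gene called. Of the 5 tested, 4 had log2 fold changes above 0, and *S1pr5* was at -0.30. For 8 T cell genes the sums were 633 to 835 against 461 to 579 CPM. Most of the T cell sum was *Cd3g*, at 595 to 793 CPM in Ncr1-KO against 442 to 554 CPM in Ncr1-WT libraries. Its log2 fold change was 0.45 (adjusted p = 0.00169), with a fold change below 1.5. All 5 tested T cell genes had log2 fold changes above 0, among which *Cd3e* (1.88) and *Cd8a* (1.53) were called as higher and *Cd3d* was at 1.04 (adjusted p = 0.0527). *Cd5* and *Cd6*, too low to test, had means of 0.919 and 0.424 CPM in Ncr1-KO against 0.121 and 0.0189 CPM in Ncr1-WT libraries. *Cd8b1*, also too low to test, went the other way, with means of 0.0106 CPM in Ncr1-KO and 0.304 CPM in Ncr1-WT libraries. The part of these cell types in the differences below was not tested.

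A gene was called when edgeR's quasi-likelihood test gave a Benjamini-Hochberg adjusted p under 0.05 and the fold change was above 1.5 or below 0.7. Of the 11463 genes tested, 0.733% were called, 0.201% as higher and 0.532% as lower in Ncr1-KO ILC1s, and 1.35% had an adjusted p under 0.05 at any fold change. Among the 9 genes of the set that were tested, *Htra3* was called as higher and the others were not called. *Tgfbr3* was too low to be tested. Since the set was chosen on this contrast, nothing is read from that count.

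*Htra3* was the gene of the set that differed most between the genotypes. Its CPM was 21.1, 36.0, 28.9, 41.9 and 33.8 in Ncr1-WT replicates 1 to 5. In Ncr1-KO replicates 1 to 5 it was 58.5, 84.7, 72.8, 46.2 and 61.2. Every Ncr1-KO library lay above every Ncr1-WT library, with Ncr1-KO replicate 4 closest to the other genotype. The means were 64.7 ± 14.7 and 32.4 ± 7.83 CPM (SD, n = 5), a log2 fold change of 1.00 (SE 0.16, 95% confidence interval 0.67 to 1.33). Across all genes tested, 3.11% had ranges that did not overlap, 1.28% in this direction. By the size of its log2 fold change, *Htra3* ranked 241 of all genes tested. The gene varied more among libraries of 1 genotype than the other tested genes of the set, with a coefficient of variation of 22.7% in Ncr1-KO and 24.2% in Ncr1-WT ILC1s, against 2.37% to 14.4% for the others.

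In the deposited table *Htra3* is placed on chromosome 5 (35994675 to 36022429, minus strand), with 3451 bases of exon. The table does not name the build of its coordinates, which differ from those of GRCm38 (mm10), the build named in the study's methods. No listed gene overlaps *Htra3* or any other gene of the set. Because *Htra3* is also a gene of stromal cells, markers of hepatic stellate cells were examined beside it. Their summed level over 7 genes moved in the same direction as *Htra3*, with 0.594 to 3.99 CPM (median 2.01) in Ncr1-KO and at most 1.51 CPM (median 0.816) in Ncr1-WT libraries. *Lrat*, a gene of retinoid storage and the only stellate gene that could be tested, was at a mean of 1.38 CPM in Ncr1-KO and 0.251 CPM in Ncr1-WT libraries (log2 fold change 2.41, SE 0.76, adjusted p = 0.144). *Pdgfrb* had means of 0.507 and 0.212 CPM. The highest Ncr1-KO and Ncr1-WT libraries were at 0.317 and 0.112 CPM for *Col1a2* and 0.265 and 0.0882 CPM for *Reln*. The order was the other way for *Col1a1* (0.238 and 0.561 CPM), *Dcn* (0.238 and 0.265 CPM) and *Des* (0 and 0.252 CPM). The part of stellate cells in the difference of *Htra3* was not tested.

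The other members of the HTRA family did not pass the threshold. *Htra1*, a secreted protease closely related to HTRA3, was at 12.6, 16.2, 17.5, 13.3 and 13.4 CPM in Ncr1-KO replicates 1 to 5. In Ncr1-WT replicates 1 to 5 it was at 9.25, 9.00, 6.45, 13.1 and 9.36 CPM. Ncr1-WT replicate 4, the highest of its genotype for *Htra3* too, was above Ncr1-KO replicate 1. The log2 fold change of *Htra1* was 0.63 (SE 0.18, adjusted p = 0.0843), and it passed in 3 of 18 alternatives, among them the fit without Ncr1-WT replicate 4 (adjusted p over all alternatives, 0.0312 to 0.262). *Htra2*, a mitochondrial protease, was at 22.0 CPM ± 2.24 in Ncr1-KO and 24.5 CPM ± 3.01 in Ncr1-WT ILC1s, a log2 fold change of -0.16 (adjusted p = 0.697). *Htra4* was too low to test, at means of 0.403 and 0.373 CPM.

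**Figure D1:**
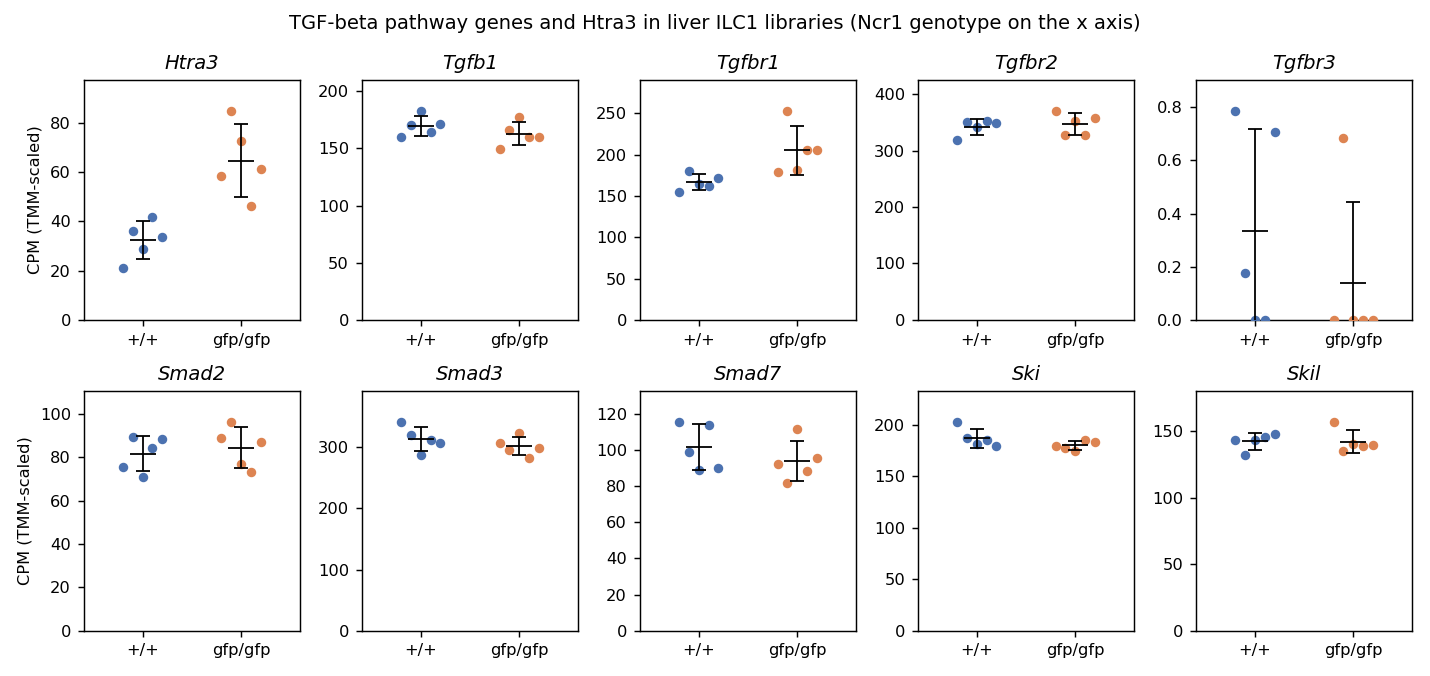
CPM of each gene (y axis, from 0, with a scale of its own in each panel) in 5 Ncr1-WT (blue) and 5 Ncr1-KO (orange) ILC1 libraries; points are libraries in replicate order, and bars are the mean and SD. *Htra3* is separated between the genotypes, 4 of 5 Ncr1-KO libraries exceed the highest Ncr1-WT library for *Tgfbr1*, and the other genes overlap.

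The ligand gene *Tgfb1* was expressed by the sorted ILC1s at a nearly even level. Its CPM was 160, 171, 183, 164 and 171 in Ncr1-WT replicates 1 to 5 and 150, 166, 177, 160 and 160 in Ncr1-KO replicates 1 to 5. The libraries of both genotypes overlapped over most of their range. The log2 fold change was -0.06 (SE 0.06, 95% confidence interval -0.19 to 0.07). *Tgfb1* lies on chromosome 7 (26472021 to 26490096, plus strand), 22.18 Mb from the targeted *Ncr1* locus. Platelets also carry TGF-β1, and the summed CPM of 4 platelet genes was between 1.46 and 5.98 in all libraries. Per kilobase of exon, the ratio of *Htra3* to *Tgfb1* was 0.250 ± 0.0498 in Ncr1-KO and 0.120 ± 0.0301 in Ncr1-WT libraries (SD, n = 5), with ranges of 0.182 to 0.321 and 0.0832 to 0.161.

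The pair of signalling receptors differed in their pattern. *Tgfbr1*, the type I receptor gene (chromosome 4, 47366094 to 47427796, plus strand), was at 155, 181, 165, 162 and 172 CPM in Ncr1-WT replicates 1 to 5. In Ncr1-KO replicates 1 to 5 it was at 179, 253, 182, 206 and 206 CPM. In Ncr1-KO libraries 4 of 5 values exceeded the highest Ncr1-WT value, and replicate 2 stood highest. The log2 fold change was 0.30 (SE 0.08, 95% confidence interval 0.13 to 0.46). Without Ncr1-KO replicate 2 it was 0.21.

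*Tgfbr2*, the type II receptor gene (chromosome 9, 115996813 to 116084481, minus strand), was at 318, 351, 341, 352 and 348 CPM in Ncr1-WT and 370, 327, 353, 327 and 358 CPM in Ncr1-KO replicates 1 to 5. The genotypes overlapped, and the log2 fold change was 0.02 (SE 0.05, 95% confidence interval -0.09 to 0.13). The ratio of *Tgfbr1* to *Tgfbr2* per kilobase was 0.473 ± 0.0900 in Ncr1-KO and 0.388 ± 0.0156 in Ncr1-WT libraries, and its ranges overlapped.

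*Tgfbr3*, which encodes the co-receptor betaglycan, was near the limit of detection (chromosome 5, 107535586 to 107718648, minus strand). It had 14, 4, 0, 0 and 13 counts in Ncr1-WT replicates 1 to 5 and 0, 15, 0, 0 and 0 counts in Ncr1-KO replicates 1 to 5. A difference between the genotypes was not detectable at this depth.

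Among the receptor-activated SMAD genes, *Smad3* was more highly expressed than *Smad2*. *Smad3* (chromosome 9, 63494574 to 63605801, minus strand) was at 341, 320.0, 287, 311 and 306 CPM in Ncr1-WT replicates 1 to 5 and at 307, 296, 323, 282 and 299 CPM in Ncr1-KO replicates 1 to 5. *Smad2*, on chromosome 18, was at 75.8, 89.6, 70.8, 84.3 and 88.5 CPM in Ncr1-WT replicates 1 to 5 and at 89.0, 96.3, 76.8, 73.2 and 87.0 CPM in Ncr1-KO replicates 1 to 5. Neither gene separated the genotypes. The log2 fold change was -0.05 for *Smad3* (SE 0.06, 95% confidence interval -0.17 to 0.06) and 0.05 for *Smad2* (SE 0.09, 95% confidence interval -0.13 to 0.23). Per kilobase, *Smad3* exceeded *Smad2* 6.92-fold ± 0.758 in Ncr1-WT and 6.47-fold ± 0.779 in Ncr1-KO libraries (SD, n = 5).

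The genes that restrain the pathway were present in all libraries without a shift between the genotypes beyond their spread. *Smad7*, the inhibitory SMAD gene on chromosome 18, was at 115, 98.8, 88.5, 114 and 90.1 CPM in Ncr1-WT and 92.2, 81.4, 111, 88.1 and 95.4 CPM in Ncr1-KO replicates 1 to 5. Its log2 fold change was -0.11 (SE 0.09, 95% confidence interval -0.30 to 0.08). *Ski* (chromosome 4, 154528184 to 154596644, minus strand) was at 179 to 203 CPM in Ncr1-WT and 175 to 186 CPM in Ncr1-KO libraries, a log2 fold change of -0.05 (SE 0.06, 95% confidence interval -0.17 to 0.06). *Skil* (chromosome 3, 30993980 to 31021845, plus strand) was at 132 to 148 CPM in Ncr1-WT and 135 to 157 CPM in Ncr1-KO libraries, with a log2 fold change of -0.00 (SE 0.06, 95% confidence interval -0.13 to 0.13). For *Tgfb1*, *Tgfbr2*, the SMAD genes and both co-repressor genes, the whole interval lay inside the fold changes used for calling.

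**Figure D2:**
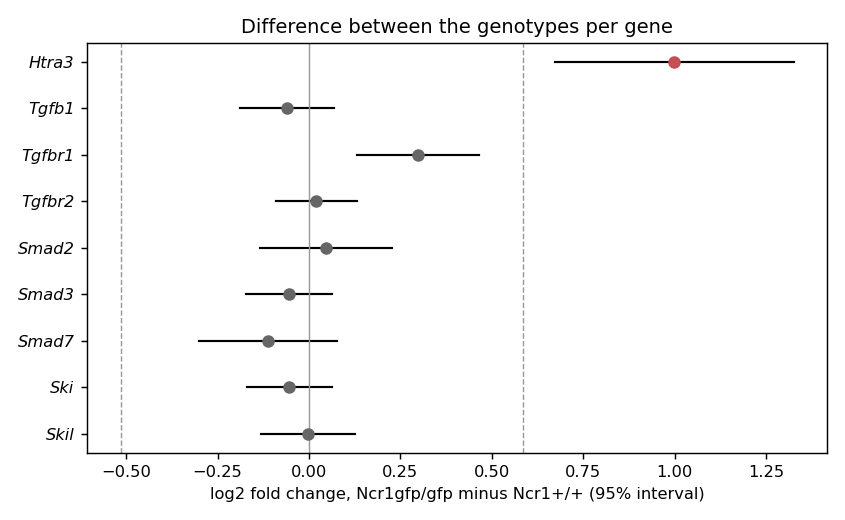
Log2 fold change of Ncr1-KO against Ncr1-WT ILC1s (x axis) for the 9 tested genes, with 95% confidence intervals as lines, 0 as a solid line and the fold changes 0.7 and 1.5 as dashed lines. The interval of *Htra3* (red, called) lies above the dashed line at 1.5, that of *Tgfbr1* lies between 0 and it, and the others include 0.

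To compare levels between genes, CPM were divided by the exon length in kilobases. In Ncr1-WT ILC1s the order was *Tgfb1* at 78.1 ± 3.94, *Tgfbr2* at 71.5, *Smad3* at 61.5, *Ski* at 34.3, *Tgfbr1* at 27.7 ± 1.65, *Smad7* at 22.8, *Skil* at 20.2, *Htra3* at 9.38 ± 2.27 and *Smad2* at 8.95 CPM per kilobase, with *Tgfbr3* last. The ranges over libraries overlapped between the neighbours *Tgfbr2* and *Smad3*, *Tgfbr1* and *Smad7*, *Smad7* and *Skil*, and *Htra3* and *Smad2*. In Ncr1-KO ILC1s *Htra3* was at 18.7 ± 4.25 CPM per kilobase, and its range of 13.4 to 24.6 lay above that of *Smad2*, 8.00 to 10.5, and took in that of *Skil*, 19.1 to 22.2. *Tgfbr1*, at 34.1 ± 4.89 in these libraries, overlapped with *Ski*. In Ncr1-WT ILC1s, *Tgfb1* stood at percentile 94.4, *Tgfbr2* at 93.5, *Smad3* at 92.0 and *Htra3* at 45.0 of all tested genes by this measure.

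**Figure D3:**
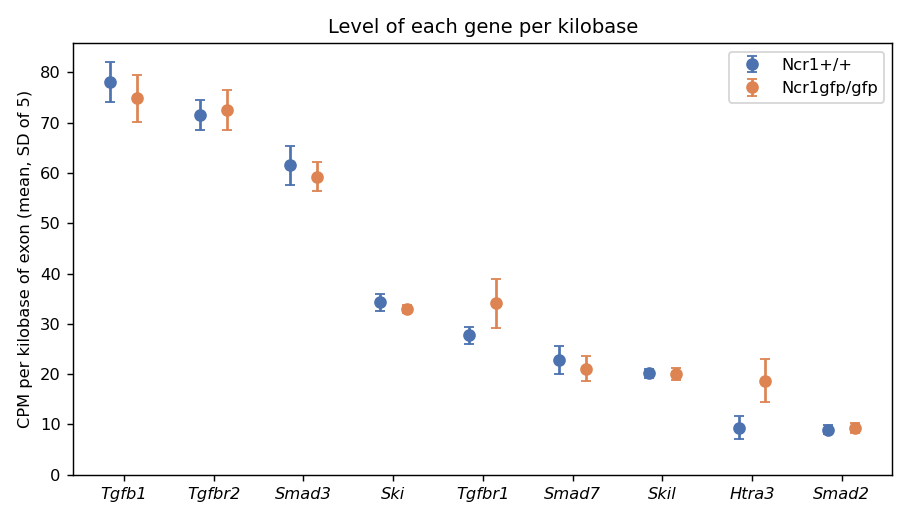
Mean CPM per kilobase of exon (y axis) with the SD of 5 libraries for each tested gene, ordered by the Ncr1-WT level. *Htra3* moves from 9.38 in Ncr1-WT (blue) to 18.7 in Ncr1-KO (orange) ILC1s, while the order of *Tgfb1*, *Tgfbr2* and *Smad3* at the top is the same in both.

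Within the genotypes, the genes of the set did not vary as a block. Over 36 pairs of tested genes, the correlation of the deviations of log2 CPM from the genotype means (10 libraries that share depth and scaling) ran from -0.69 for *Htra3* and *Ski* to 0.77 for *Smad3* and *Smad7*. That of *Htra3* and *Smad2* was 0.64, and that of *Tgfbr1* and *Smad7* was -0.64. The genes whose log2 CPM followed *Htra3* most closely over the 10 libraries, among 9254 compared, were *Rps4l* (r = 0.957), *Errfi1* (0.947), *Itpripl2* (0.932), *Gpat3* (0.930) and *Klra5* (0.928). These values include the difference between the genotypes. *Rps4l* and *Klra5* belong to families of similar sequences, whose reads can be hard to assign to 1 gene. When only the deviations from the genotype means were compared, the genes were *Fam46c* (0.971), *Washc3* (0.947), *Dtx2* (0.947), *Smyd2* (0.938) and *Lgals3* (0.935), none of which was among the first 5. For log2 CPM over the 10 libraries, their r was -0.17, 0.15, -0.10, 0.67 and 0.92 in the same order. Both lists are the top of 9254 correlations over 10 libraries, so high values can arise by selection alone, and they were not tested.

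Beyond the set, 79 further genes of the TGF-β family pathway were examined by role, of which 48 were tested. In Ncr1-KO ILC1s, 4 of them were called as lower and 0 as higher, against 0.532% and 0.201% of all genes tested. They were *Ltbp3*, *Furin*, *Bmp7* and *Eng*. Of the 48, 12 had an unadjusted p under 0.05, against 11.4% of all genes, and their median log2 fold change was 0.01, against 0.00 over all genes. These lists were drawn up with earlier results of these libraries known, and *Furin* and the target gene *Cdh1* were among the genes known to be called.

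*Ltbp3* encodes a latent TGF-β binding protein, which holds the latent ligand in the matrix. It was at 15.3, 15.9, 17.2, 12.5 and 16.6 CPM in Ncr1-WT and 8.51, 3.66, 6.09, 5.89 and 7.62 CPM in Ncr1-KO replicates 1 to 5. The genotypes did not overlap, and the log2 fold change was -1.29 (SE 0.20, adjusted p = 0.000977). *Furin*, the gene of a protease that cleaves the TGF-β precursor among many others, fell from 241 ± 39.2 to 166 ± 18.1 CPM (log2 fold change -0.54, SE 0.09, adjusted p = 0.00235). The lowest Ncr1-WT library was at 206 CPM and the highest Ncr1-KO library at 194 CPM.

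*Bmp7*, the gene of a bone morphogenetic protein, fell from 22.5 ± 1.44 to 14.3 ± 3.00 CPM, without overlap (log2 fold change -0.65, SE 0.14, adjusted p = 0.0182). *Eng*, the gene of the co-receptor endoglin, fell from 8.26 ± 1.78 to 3.81 ± 1.25 CPM, also without overlap (log2 fold change -1.12, SE 0.26, adjusted p = 0.0277). Endoglin is abundant on endothelial cells. The summed level of 6 endothelial genes was 128 to 151 CPM in Ncr1-KO and 113 to 147 CPM in Ncr1-WT libraries. Nearly all of it was *Pecam1*, at 111 to 149 CPM, which leukocytes also express, and the sum of the other 5 genes was 0.952 to 2.50 CPM in Ncr1-KO and 0.606 to 2.64 CPM in Ncr1-WT libraries. When single libraries were left out, the call of *Ltbp3* held in 10 of 10 fits, that of *Furin* in 8, that of *Bmp7* in 7 and that of *Eng* in 5. The *Eng* call was lost without Ncr1-KO replicate 2 or 5 or Ncr1-WT replicate 3, 4 or 5 (highest adjusted p over its alternatives, 0.101). The *Bmp7* call was lost without Ncr1-KO replicate 4, without Ncr1-WT replicate 3 or 4, and without the pair of libraries highest in hepatocyte genes, Ncr1-KO replicate 3 and Ncr1-WT replicate 1 (highest adjusted p, 0.0708). The *Furin* call was lost without Ncr1-KO replicate 3 or Ncr1-WT replicate 4, where its fold change was above 0.7 (highest adjusted p, 0.0126).

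**Figure D4:**
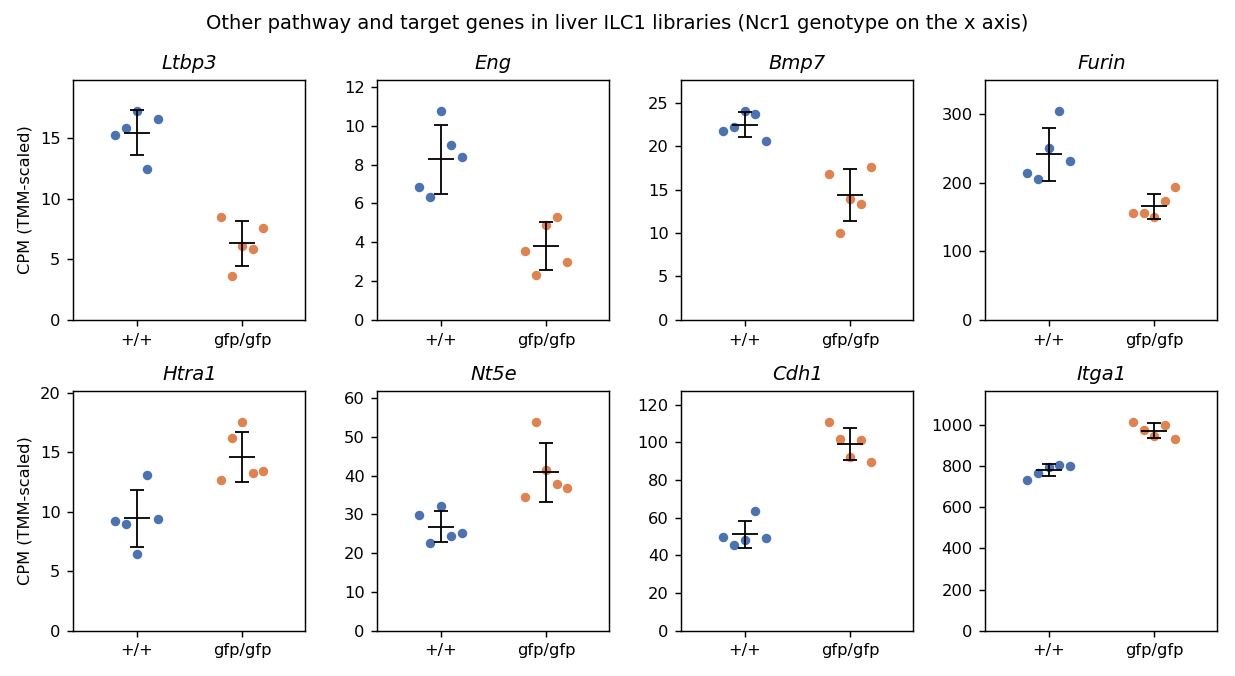
CPM (y axis, from 0) of 8 further pathway and target genes in 5 Ncr1-WT (blue) and 5 Ncr1-KO (orange) libraries, with the mean and SD as bars. *Ltbp3*, *Eng*, *Bmp7* and *Furin* are lower and *Nt5e*, *Cdh1* and *Itga1* higher in every Ncr1-KO library than in any Ncr1-WT library, and *Htra1* overlaps.

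The rest of the pathway genes were not called. Among the ligand genes other than *Tgfb1*, 3 of 13 could be tested, *Bmp7* included, and *Gdf11* was the highest, at 211 CPM in Ncr1-KO and 205 CPM in Ncr1-WT ILC1s. *Tgfb3* was at 3.57 and 5.15 CPM in the same order (log2 fold change -0.53, adjusted p = 0.523), and *Tgfb2*, named after its values were seen, did not exceed 1.10 CPM. Of the 20 other genes of latency and extracellular control, 6 were tested. *Itgav*, the gene of the αV integrin chain that helps to activate latent TGF-β, was at 234 and 246 CPM, and *Nrros*, which encodes an anchor of latent TGF-β on myeloid cells, was at 60.1 and 60.3 CPM.

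Among the 12 further receptor genes, 8 were tested, and *Acvr1b*, an activin type I receptor gene, was at 45.5 CPM in Ncr1-KO and 48.1 CPM in Ncr1-WT ILC1s. *Smad4*, the common partner of the activated SMADs, was at 113, 118, 114, 123 and 128 CPM in Ncr1-KO replicates 1 to 5. In Ncr1-WT replicates 1 to 5 it was at 106, 110, 113, 112 and 93.2 CPM. The ranges did not overlap, but the log2 fold change of 0.15 did not pass the test (adjusted p = 0.374). *Smad6*, the other inhibitory SMAD gene, named here after its values were seen, did not exceed 0.841 CPM in any library.

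Co-activators and co-repressors were strongly expressed, with *Ncor1* at 803 CPM in Ncr1-KO and 802 CPM in Ncr1-WT, *Crebbp* at 501 and 498 CPM and *Ep300* at 463 and 452 CPM. *Tgif1*, the gene of a SMAD co-repressor, also named after its values were seen, was at 7.15 and 11.2 CPM without overlap (log2 fold change -0.65, adjusted p = 0.106). Of 16 genes of receptor turnover and SMAD adaptors, 0 were called by edgeR, against 0.733% of all genes tested. An unadjusted p under 0.05 was found for 3 of the 16, against 11.4% of all genes. *Ppp1r15a*, whose product guides a phosphatase, stood nearest to the threshold, at 93.0 and 141 CPM (log2 fold change -0.60, adjusted p = 0.0501). It passed in 6 of 18 alternatives. In the non-SMAD branch *Tab2* was at 788 and 792 CPM, and all 5 of its genes had log2 fold changes from -0.03 to 0.08.

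**Figure D5:**
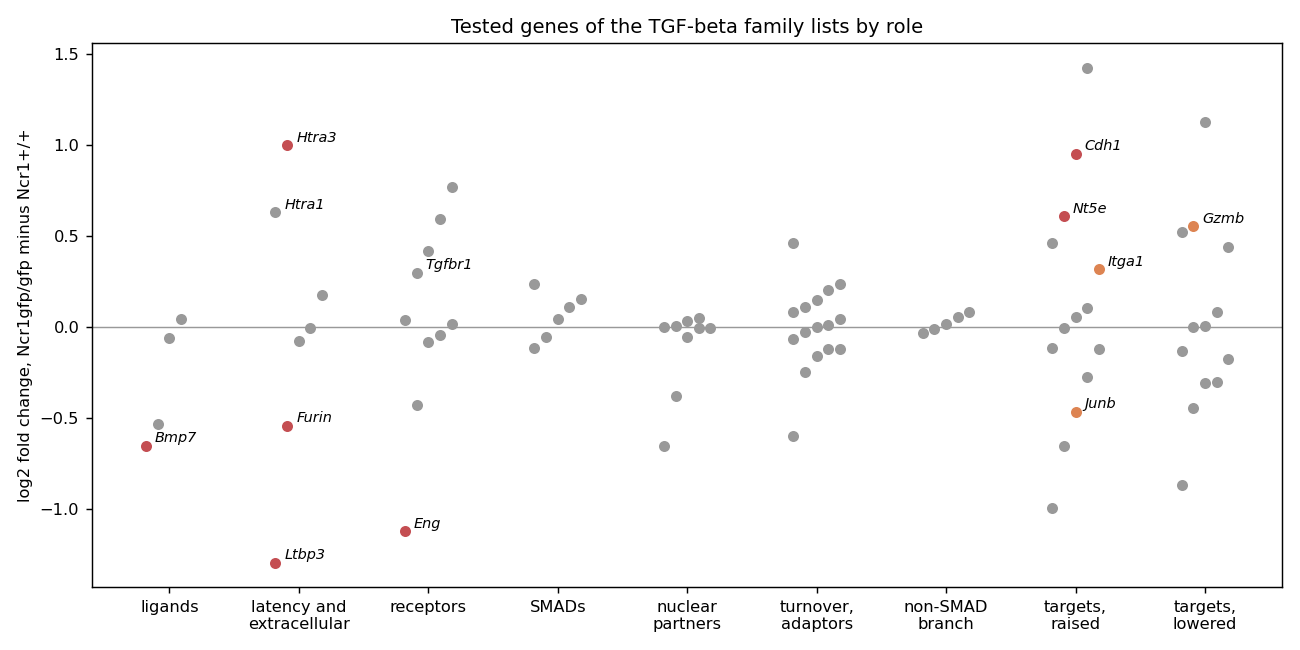
Log2 fold change of Ncr1-KO against Ncr1-WT ILC1s (y axis) for every tested gene of the TGF-β lists, by role (x axis); red points are called, orange points have an adjusted p under 0.05 with a smaller fold change, and grey points have neither. A gene in more than 1 list is drawn in each, and the called pathway genes are in the ligand, latency and receptor columns.

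Genes known to respond to TGF-β were examined next, without *Smad7* and *Skil*, which are in the set. Of 15 other genes listed as raised by TGF-β in lymphocytes, some of them also counted among the pathway genes above, 12 were tested. In Ncr1-KO ILC1s 2 were called as higher and 0 as lower, against 0.201% and 0.532% of all genes tested. *Cdh1*, the gene of E-cadherin, was at 111, 102, 92.4, 101 and 89.5 CPM in Ncr1-KO and 49.9, 45.4, 48.4, 63.7 and 49.03 CPM in Ncr1-WT replicates 1 to 5. The groups were well apart, with a log2 fold change of 0.95 (SE 0.09, adjusted p = 2.35e-06). *Nt5e*, the gene of the surface enzyme CD73, rose from 26.8 ± 4.06 to 40.9 ± 7.64 CPM without overlap (log2 fold change 0.61, SE 0.13, adjusted p = 0.0139). The *Nt5e* call was lost without Ncr1-KO replicate 2, where the log2 fold change was 0.49, and without Ncr1-WT replicate 2 or 4 (highest adjusted p, 0.0504).

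*Itga1* rose from 779 ± 30.4 to 971 ± 35.1 CPM, without overlap and with a fold change below 1.5 (log2 fold change 0.32, SE 0.04, adjusted p = 0.000481). CD49a, its product, was a sorting marker in both genotypes. *Junb*, the gene of an AP-1 transcription factor, fell from 719 ± 156 to 521 ± 57.02 CPM (log2 fold change -0.46, adjusted p = 0.0334), and this was lost in 10 of 18 alternatives (highest adjusted p, 0.125). *Entpd1*, the gene of the surface enzyme CD39, was at 249 and 240 CPM, and *Cd69*, a marker of residency, at 79.6 and 74.1 CPM. *Tgif1*, given above among the co-repressors, is also 1 of the 12 and was lower in Ncr1-KO libraries without overlap (log2 fold change -0.65, adjusted p = 0.106). Of the 12 genes, 7 had log2 fold changes above 0 and 5 below, with a median of 0.08.

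Of 14 genes listed as lowered by TGF-β, 13 were tested and 0 were called by edgeR, against 0.733% of all genes tested. Of the 13, 5 had an unadjusted p under 0.05, against 11.4% of all genes, and their median log2 fold change was 0.00. *Gzmb*, the gene of the cytotoxic protease granzyme B, was at 3533, 3965, 3220, 2440 and 2199 CPM in Ncr1-KO and 2112, 2006, 1914, 2192 and 2229 CPM in Ncr1-WT replicates 1 to 5. Its log2 fold change was 0.55 (adjusted p = 0.00813), and Ncr1-KO replicate 5 lay within the Ncr1-WT range. *Tbx21*, the gene of the transcription factor T-bet, was at 414 and 452 CPM, *Prf1*, the perforin gene, at 344 and 343 CPM, and *Ifng* at 129 and 175 CPM (log2 fold change -0.44, adjusted p = 0.0683).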

How the data were processed

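RNA of sorted liver ILC1s was amplified from polyA tails (SMART-Seq) and sequenced as single reads. After trimming, the authors aligned reads by STAR and used HTSeq to assign them to genes, and the deposited values are raw counts per gene in 10 libraries. HTSeq was run at its default settings, which count reads by strand, while the amplification kit does not mark the strand, so that reads of a gene and an antisense partner cannot be told apart. Library totals were 15796253 to 22623133 counts, and the 3-count limits cover counting error only.

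Counts were filtered with filterByExpr, scaled by TMM and tested in R 4.3.3 by edgeR 4.0.16 (quasi-likelihood test, Benjamini-Hochberg adjustment over 11463 genes). A call required an adjusted p under 0.05 together with a fold change beyond 1.5 upwards or 0.7 downwards. CPM used TMM-scaled library sizes. Levels per kilobase used the listed exon lengths. The script was tested on simulated data. Alternatives were DESeq2 1.42.0, limma-voom (limma 3.58.1), a likelihood ratio test, upper-quartile scaling, no filter, a minimum of 10 counts in every library, a replicate block and each library left out.

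The set and all gene lists were chosen with earlier results of these data known. Named were every gene of the set, *Ncr1*, the HTRA family, pathway and target genes with an adjusted p under 0.05, at most the 3 highest others per list, and the 5 genes most like *Htra3* by each of 2 measures with a mean of at least 5 CPM. Correlations used log2 CPM with a prior count of 2. *Zfp683*, on the ILC1 marker list, was not used here. B cell, macrophage and hepatocyte markers were also summed.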

Additional observations from a re-analysis of the deposited data

Results flagged for a closer look

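Among 22 groups of 5 libraries examined for a library far from the others, 2 stood out, where 1.1 are expected by chance. *Tgfbr3* was at 0.686 CPM in Ncr1-KO replicate 2 and at 0 in the other Ncr1-KO libraries, on 15 counts. *Skil* was at 157 CPM in Ncr1-KO replicate 1, with the next library at 140 CPM, and 4 of the 5 Ncr1-WT libraries lay above that next library and below replicate 1.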

How the results depend on the processing

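The log2 fold change of *Htra3* ran from 0.83 to 1.11 over 18 alternatives and that of *Tgfbr1* from 0.21 to 0.34. As the set was selected on this contrast, these ranges are a description and no support. Genes called in all went from 84 to 131 without the filter, 138 by the likelihood ratio test, 126 with DESeq2 and 155 with no limit on the fold change, and ran from 60 to 98 when each library was left out. The 5 pathway genes called became 3 to 5 on leaving out a library, with 3 without Ncr1-WT replicate 3 or 4. The 2 target genes called became 1 to 5 on leaving out a library and 5 with no limit on the fold change. They were 1 without Ncr1-KO replicate 2 or Ncr1-WT replicate 2 or 4, 4 without Ncr1-KO replicate 4 and 5 without Ncr1-WT replicate 5. The cause was not tested. Same-numbered libraries did not deviate together more than others (correlations of -0.02 to 0.04, against -0.07 to 0.10 for other pairs). No pairing by number was detected, which does not show that there was none. The replicate block called 87 genes, 6 of them in the pathway, with *Htra3* at 1.01. Ranked by CPM without division by exon length, *Tgfbr2* came first, *Tgfb1* was number 4 and *Htra3* number 9. Without Ncr1-KO replicate 3 and Ncr1-WT replicate 1, the highest in hepatocyte genes (61.1 and 34.9 CPM), an alternative chosen after seeing the data, 60 genes were called and *Htra3* was at 0.83. A count of 0 allows up to 3 counts, 0.132 to 0.190 CPM, which limits what can be said of *Tgfbr3*, *Tgfb2* and *Smad6*.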

Other observations

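*Il7r*, the gene of the interleukin 7 receptor chain and a marker on the ILC1 list, was called as lower in Ncr1-KO ILC1s. It was at 67.2, 45.1, 87.6, 87.5 and 135 CPM in Ncr1-KO and 199, 182, 185, 132 and 131 CPM in Ncr1-WT replicates 1 to 5, and Ncr1-KO replicate 5 lay within the Ncr1-WT range (log2 fold change -0.97, adjusted p = 0.00773). *Itgam*, the gene of CD11b on the NK cell list, was called as higher (log2 fold change 0.96, adjusted p = 5.59e-05), at 76.0 to 121 CPM against 43.3 to 58.8 CPM. On the T cell list *Cd3e* (log2 fold change 1.88, adjusted p = 0.00235) and *Cd8a* (log2 fold change 1.53, adjusted p = 0.0248) were called as higher. *Cd3e* was at 9.05 to 38.8 CPM and *Cd8a* at 11.8 to 36.4 CPM in Ncr1-KO libraries, against 2.80 to 6.85 and 1.35 to 9.70 CPM. The summed CPM of 4 B cell genes was 2.49 to 4.98 against 0.561 to 5.88, and that of 8 macrophage genes 6.76 to 48.2 against 10.5 to 66.9.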
